A study of Mus musculus with 6 samples.

Results

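The 10 genes described here encode immunoglobulin chains, proteins of B cells and plasma cells, and surface proteins of T cells: Igkc, Ighm, Jchain, Mzb1, Cd79a, Ms4a1, Cd3e, Cd3d, Cd3g and Cd8a. They were picked by symbol, as 10 of the 50559 genes in the deposited tables, and all 10 were present. Their levels in these same libraries were known when they were picked, so every comparison between the groups below is a description and carries no test. The libraries came from C57 mouse tissue labelled auditory cortex, 3 from WNT3 overexpressing samples and 3 from samples labelled WNT3 control. Wnt3 encodes a secreted ligand of the Wnt family. The labels name neither the way in which the gene was overexpressed nor what the controls received, and they do not give age or sex or say whether the replicates are separate animals, so the spread between samples may be partly technical. The extraction protocol speaks of striatum instead of auditory cortex. Cortical excitatory neuron markers summed to 1159, 1177 and 1252 CPM (counts scaled to equal library size by the TMM method) in the overexpression libraries and to 1239, 1249 and 1121 CPM in the controls, and markers of striatal projection neurons to 188, 214 and 258 CPM in overexpression and 177, 272 and 356 CPM in control.

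An antibody is built from heavy and light chains, each made of a variable segment, joined by DNA rearrangement in a B cell, and a constant region. A B cell carries its antibody on the surface together with the signalling protein CD79A, and its descendant, the plasma cell, secretes antibody in bulk. Plasma cells that make polymeric IgM or IgA also make the J chain, which links the antibody units. T cells read antigen through a rearranged T cell receptor that signals through the CD3 chains, and CD8 marks the cytotoxic class. Healthy brain tissue holds few lymphocytes, most of them in the meninges, choroid plexus and vessels.

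Total counts were between 42614588 and 71803617 per library, and overexpression library 1, which carries most of the signal described here, was not the deepest, at 54642400. Wnt3 was at 98.8, 7.45 and 8.71 CPM in overexpression libraries 1 to 3 and 2.70, 1.91 and 1.74 CPM in controls 1 to 3, so the library with the highest Wnt3 is the same library 1. Control 2 stood apart from the other controls, with the highest level of the 6 libraries in 35.76% of the 22360 genes tested, where library 1 of overexpression was highest in 15.04%. The counts are whole numbers, but a count of 1 does not always stand for a read: among genes with 20 or more counts in some library, 44 of 94 values of 1 stood for under 0.5 read when judged by the TPM of the same gene (a relative level corrected for transcript length). In bulk tissue, fewer cells of a type and less RNA per cell cannot be told apart.

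In overexpression library 1, the counts assigned to variable segments were concentrated in 1 kappa and 1 heavy segment. The shares below leave out the rows of the whole loci, which had 4670 (Igk) and 7909 (Igh) counts in that library. How reads were divided between those rows and the segments is not known. The light chain segment Igkv5-39 had 1747 of the 1780 counts over all 162 kappa variable segments in that library, a share of 98.1% (95% exact Clopper-Pearson interval 97.4 to 98.7). Its share of their summed TPM was 99.7%. The heavy chain segment Ighv3-6 had 97 of the 126 counts over 183 heavy variable segments, 77.0% (interval 68.7 to 84.0), and 99.5% of their summed TPM. The other 29 heavy segments with a count had exactly 1 each. Intervals here cover counting error only, and the protocols name no molecular identifiers. They do not cover counts of 1 that stand for less than a read, and both shares by TPM lie above their intervals by counts. These segments were singled out after their counts were seen.

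Both segments have close relatives in the genome, and the coding sequences below show how far each differs from its nearest one. Igkv5-39 lies on chromosome 6, positions 69900424 to 69900977 on the minus strand of mm10 (GENCODE M21). It matches its nearest relative, Igkv5-45, at 314 of 347 aligned coding bases (90.5%), and that relative had 1 count in overexpression library 1. Ighv3-6 lies on chromosome 12, positions 114288152 to 114288582 on the minus strand, and matches Ighv3-1 at 321 of 350 bases (91.7%), with 1 count for Ighv3-1 in the same library. The last 300 coding bases of each segment in the reference are printed 5′ to 3′, with capitals at the bases that differ within the pair, 25 in the kappa pair and 20 in the heavy pair.
Igkv5-39: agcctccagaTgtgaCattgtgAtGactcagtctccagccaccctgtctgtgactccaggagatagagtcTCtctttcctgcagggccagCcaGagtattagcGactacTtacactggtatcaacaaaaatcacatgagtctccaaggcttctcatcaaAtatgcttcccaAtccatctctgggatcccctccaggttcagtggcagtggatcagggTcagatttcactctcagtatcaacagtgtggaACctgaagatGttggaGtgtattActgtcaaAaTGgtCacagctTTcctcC
Igkv5-45: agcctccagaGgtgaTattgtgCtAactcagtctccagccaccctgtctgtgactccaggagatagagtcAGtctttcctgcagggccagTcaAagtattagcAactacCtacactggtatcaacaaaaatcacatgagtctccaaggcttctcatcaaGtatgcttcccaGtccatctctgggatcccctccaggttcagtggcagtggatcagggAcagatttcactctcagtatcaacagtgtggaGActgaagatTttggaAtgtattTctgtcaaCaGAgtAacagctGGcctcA
Ighv3-6: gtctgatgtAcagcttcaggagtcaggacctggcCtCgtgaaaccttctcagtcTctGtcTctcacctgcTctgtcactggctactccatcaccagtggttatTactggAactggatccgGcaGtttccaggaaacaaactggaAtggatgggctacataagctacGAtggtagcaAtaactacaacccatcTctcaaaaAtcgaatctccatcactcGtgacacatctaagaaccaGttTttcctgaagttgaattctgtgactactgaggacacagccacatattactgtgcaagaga
Ighv3-1: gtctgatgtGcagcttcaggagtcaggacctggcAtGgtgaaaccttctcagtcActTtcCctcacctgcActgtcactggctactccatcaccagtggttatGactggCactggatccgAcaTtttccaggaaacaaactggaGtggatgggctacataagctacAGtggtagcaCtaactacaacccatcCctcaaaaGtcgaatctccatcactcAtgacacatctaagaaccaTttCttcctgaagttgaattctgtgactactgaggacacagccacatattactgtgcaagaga
These are reference sequences, and the expressed, rearranged and possibly mutated sequences were not analysed here. The second kappa segment by counts was Igkv5-43, a further relative of Igkv5-39 at 89.9% identity, with 3 counts.

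In the other libraries the same segments were at or near 0. Igkv5-39 had 6 and 5 counts in overexpression libraries 2 and 3, against 0, 0 and 1 in the controls, and Ighv3-6 had 1 and 1 in those overexpression libraries, against 0 in every control. Per length, Igkv5-39 was at 230.7, 0.634 and 0.411 TPM in overexpression libraries 1 to 3, and at 0, 0 and 0.00239 TPM in controls 1 to 3. All kappa segments together had 1780, 19 and 11 counts in overexpression and 0, 7 and 2 in control. Their summed TPM was 231.4, 0.764 and 0.465 in overexpression and 0, 0.00456 and 0.00573 in control. Lambda variable segments had 3, 0 and 1 counts in overexpression and 0 in each control.

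Igkc, the constant region of the kappa light chain on chromosome 6 (70726435 to 70726966, plus strand), followed the kappa segments. It had 621, 11 and 3 counts in overexpression and 1 count in each control. By TPM it was at 88.8, 1.36 and 0.311 in overexpression and at 0.000209, 0.00229 and 0.0213 in control, and the control counts stood for 0.00119, 0.0241 and 0.145 of a read. Every overexpression library lay above every control, and library 1 held 98.1% of the summed overexpression CPM. Of the light chain constant counts in library 1, 621 of 626 were kappa, a share of 99.2% (interval 98.2 to 99.7). That share leaves out the row of the whole lambda locus, Igl, singled out after its values were seen. Igl had 190, 102 and 50 counts in overexpression and 28, 32 and 63 in control. How reads were divided between that row and the lambda constant regions is not known. Overexpression libraries 2 and 3 had 13 and 4 light chain constant counts and the controls 3, 2 and 2, too few to give the share in them any precision.

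Jchain, which joins the units of polymeric IgM and IgA, lies on chromosome 5 (88519809 to 88527891, minus strand). Its counts were 1442, 100 and 112 in overexpression and 25, 37 and 45 in control. On the CPM scale this was 25.7, 1.61 and 1.57 in overexpression, a mean of 9.63 ± 13.9, and 0.587, 0.679 and 0.890 in control, a mean of 0.718 ± 0.156 (SD, n = 3 each). All 3 overexpression libraries were above all controls, with library 1 far above libraries 2 and 3. The fitted log2 fold change was 3.74 ± 1.11 (SE), and 1.14 without overexpression library 1. The mean CPM of overexpression libraries 2 and 3 alone was 2.21 times the control mean.

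Mzb1, an endoplasmic reticulum protein that helps B cells and plasma cells assemble and secrete antibody, is on chromosome 18 (35647267 to 35649367, minus strand). It had 44, 15 and 5 counts in overexpression and no count in any control. Its mean CPM was at least 18.0-fold higher in overexpression, taking a floor of 3 counts over the control group, and at least 7.66-fold higher without overexpression library 1. The level was low in every library, 2.21, 0.628 and 0.174 TPM in overexpression libraries 1 to 3.

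Ighm, the constant region of the mu heavy chain (chromosome 12, 113418558 to 113422730, minus strand), did not follow the others. It had 2083, 750 and 2057 counts in overexpression libraries 1 to 3 and 850, 1656 and 683 in the controls. The same levels were 37.15, 12.05 and 28.8 CPM in overexpression, a mean of 26.0 ± 12.8, and 19.95, 30.4 and 13.5 CPM in control, a mean of 21.3 ± 8.51 (SD, n = 3 each). The groups overlapped, with the lowest library in overexpression and control 2 above overexpression library 3. The fitted log2 fold change was 0.29 ± 0.43 (SE), and -0.06 without overexpression library 1. Ighm stood at 21.6 to 33.7 TPM in controls in which Igkc, the usual partner chain of mu in mice, was at most 0.0213 TPM. The row of the whole kappa locus, Igk, had 356, 600 and 372 counts in the same controls. How reads were divided between Igkc and that row is not known, so Igkc near 0 does not show that kappa was absent.

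The other heavy chain constant regions differed in where they were found. Igha, the constant region of IgA (chromosome 12, 113254830 to 113260236, minus strand), had 168, 1 and 3 counts in overexpression and 1 count in each control, or 6.28, 0.02165 and 0.0682 TPM in overexpression and 0.000104, 0.00102 and 0.00141 TPM in control. Ighg2b had 24, 1 and 1 counts in overexpression and 1, 1 and 0 in control. Ighg2c was spread over both groups, with 56, 60 and 36 counts in overexpression and 27, 59 and 11 in control. Ighd had exactly 1 count in each of the 6 libraries, Ighg1 1 count in each overexpression library and 0 in each control, Ighg3 at most 1 count anywhere, and Ighe no count. Among all heavy chain constant counts, alpha made up 7.20% in overexpression library 1 (interval 6.18 to 8.32) and 0.123% and 0.143% in libraries 2 and 3, against 0.114%, 0.0582% and 0.144% in controls 1 to 3. Each control share rests on 1 count, which by TPM stood for 0.00226, 0.0410 and 0.0365 of a read. As a share of the summed TPM of these regions, alpha was 8.51%, 0.0969% and 0.1435% in overexpression and 0.000308%, 0.00286% and 0.00636% in control. Mu made up 89.3%, 92.0% and 98.0% in overexpression and 96.6%, 96.3% and 98.1% in control.

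**Figure D1:**
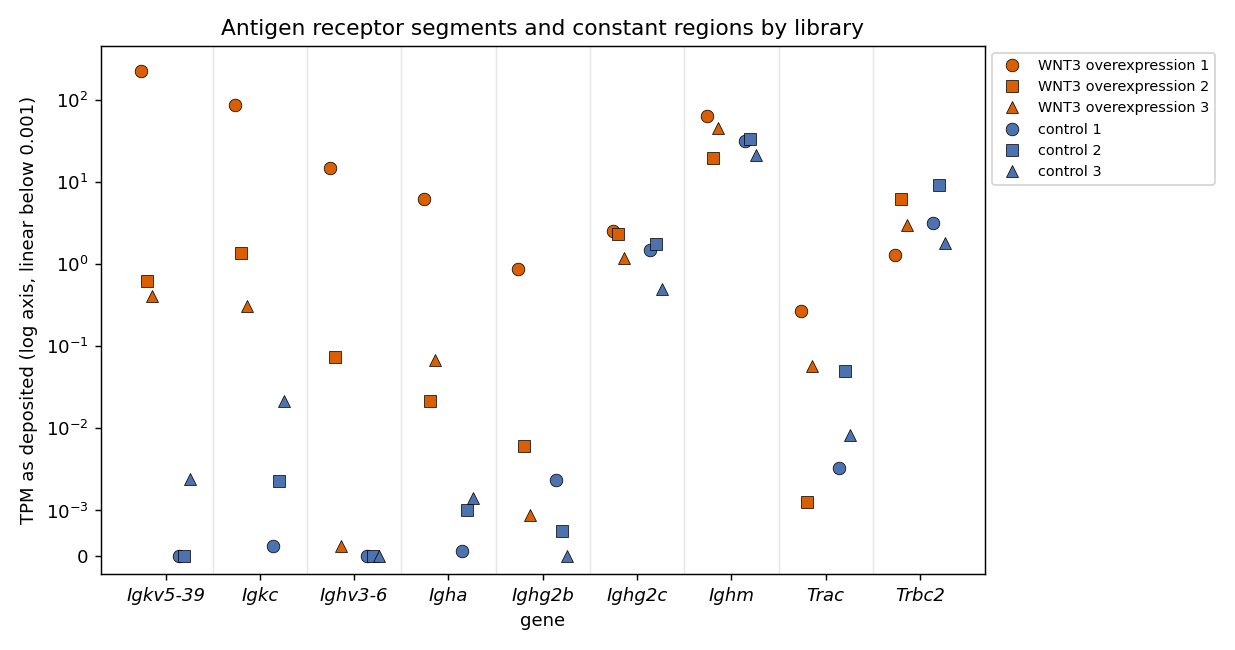
Deposited TPM (log axis, linear below 0.001) of antigen receptor variable segments and constant regions in each library, orange for WNT3 overexpression and blue for control, with a marker shape per replicate number. Igkv5-39, Igkc, Ighv3-6, Igha and Ighg2b were high in overexpression library 1 and far lower elsewhere, whereas Ighm, Ighg2c and Trbc2 were present in all 6 libraries.

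The tables also hold rows for whole receptor loci, which can share reads with the segments inside them. The Igk row had 4670, 670 and 681 counts in overexpression libraries 1 to 3 and 356, 600 and 372 in the controls. The Igh row had 7909, 3030 and 4826 counts in overexpression and 2249, 3311 and 2018 in control. Both rows were highest in overexpression library 1, and in CPM the Igh row of library 2, at 48.7, lay below the 52.8 and 60.7 of controls 1 and 2. These locus rows were singled out after their values were seen, and no source used here says how reads were divided between a locus row and its segments.

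The B cell surface genes were found at a few counts. Cd79a, the signalling partner of the B cell receptor (chromosome 7, 24897381 to 24902197, plus strand), had 22, 0 and 11 counts in overexpression and 0, 7 and 0 in control. Ms4a1, which encodes CD20 (chromosome 19, 11249675 to 11266241, minus strand), had 16, 0 and 7 counts in overexpression and 4, 0 and 4 in control. Both were highest in overexpression library 1 and at 0 in overexpression library 2, and the groups overlapped in both. Per length, Cd79a was at 0.984 TPM and Ms4a1 at 0.234 TPM in overexpression library 1, where Igkc was at 88.8 TPM and Jchain at 31.4 TPM. The ratio of mean CPM of Ms4a1 was 2.22, and 0.850 without overexpression library 1.

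The T cell genes were low in all libraries and highest in overexpression library 1. Cd3e, Cd3d and Cd3g encode the epsilon, delta and gamma chains of the CD3 complex and lie together on chromosome 9, between positions 44969572 and 45009627. Cd3e had 27, 6 and 18 counts in overexpression and 0, 0 and 6 in control. Cd3d had 30, 10 and 7 counts in overexpression and 0, 7 and 0 in control. Cd3g had 56, 0 and 0 counts in overexpression and 3, 0 and 4 in control. In Cd3e, Cd3d and Cd3g the groups overlapped, and Cd3g was found in no overexpression library but the first. The ratio of mean CPM was 6.99 for Cd3e, 6.18 for Cd3d and 6.68 for Cd3g, and without overexpression library 1 it was 4.41 for Cd3e and 3.02 for Cd3d, while Cd3g was at 0 in the remaining libraries.

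Cd8a, the alpha chain of the CD8 co-receptor (chromosome 6, 71373427 to 71379173, plus strand), had 99, 11 and 8 counts in overexpression and 0, 6 and 7 in control. On the CPM scale overexpression library 3, at 0.112, lay below control 3, at 0.138, so the groups overlapped, and the ratio of mean CPM was 8.27, or 1.74 without overexpression library 1. Its partner chain Cd8b1 had 31, 10 and 8 counts in overexpression and 0, 19 and 4 in control. Cd8b1 was singled out after its values were seen.

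**Figure D2:**
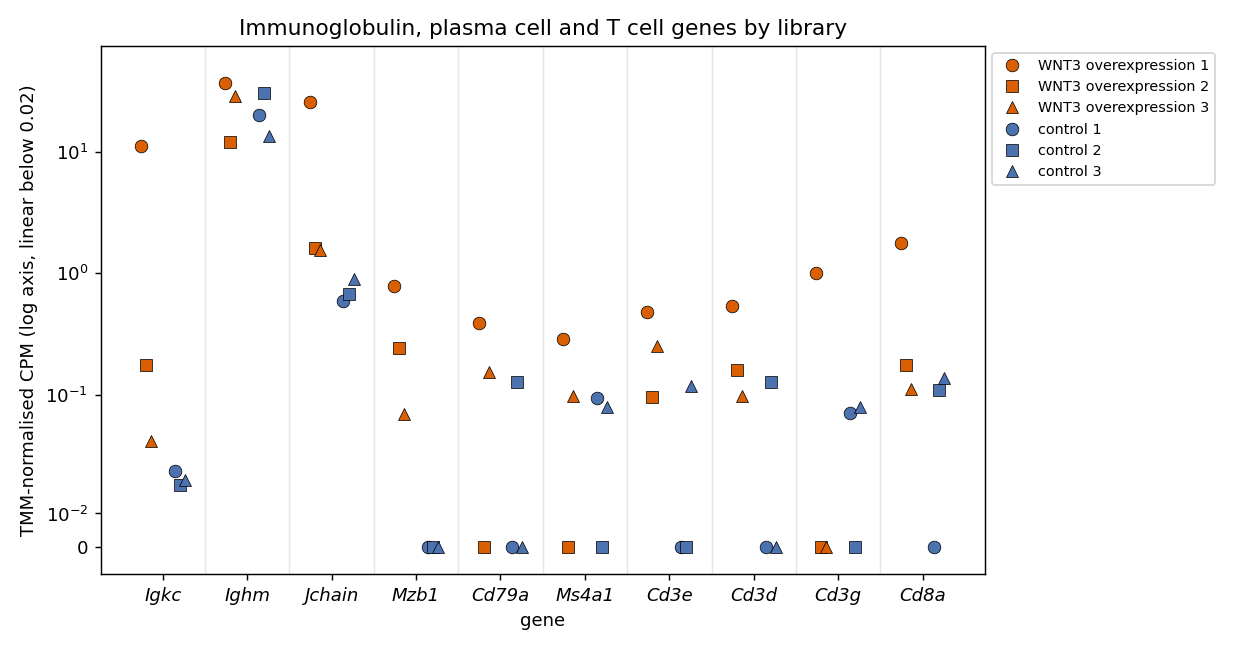
TMM-normalised CPM (log axis, linear below 0.02) of the 10 genes in each library, orange for WNT3 overexpression and blue for control, with a marker shape per replicate number. Overexpression library 1 is the highest point for all 10 genes, and the groups are apart for Igkc, Jchain and Mzb1.

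Set side by side, all 10 genes had their highest CPM in overexpression library 1 and a higher mean in overexpression than in control. Without that library, 7 of the 10 were still higher on average, and Ighm, Ms4a1 and Cd3g were lower. Overexpression library 1 held from 58.0% of the summed overexpression CPM (Cd3e) to 100% (Cd3g) for the 9 genes other than Ighm, with a median of 74.4%, and 47.6% for Ighm. The groups did not overlap for 3 of the 10 genes, Igkc, Jchain and Mzb1, where 4.71% of all genes with a count (5.89% of genes tested) had overexpression higher with no overlap and 10.3% of genes with a count had no overlap in either direction. The 10 genes were picked with this contrast in view, so nothing is read from that count. Libraries 2 and 3 of overexpression had 5 and 6 of the 10 genes above every control, and the numbers of genes at 0 were 0, 3 and 1 in overexpression libraries 1 to 3 and 5, 4 and 3 in controls 1 to 3. Some of these rest on a few counts, such as 3 for Igkc, 5 for Mzb1 and 7 for Ms4a1 in overexpression library 3. The share over all genes was not counted for single libraries, so nothing is read from these numbers either.

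**Figure D3:**
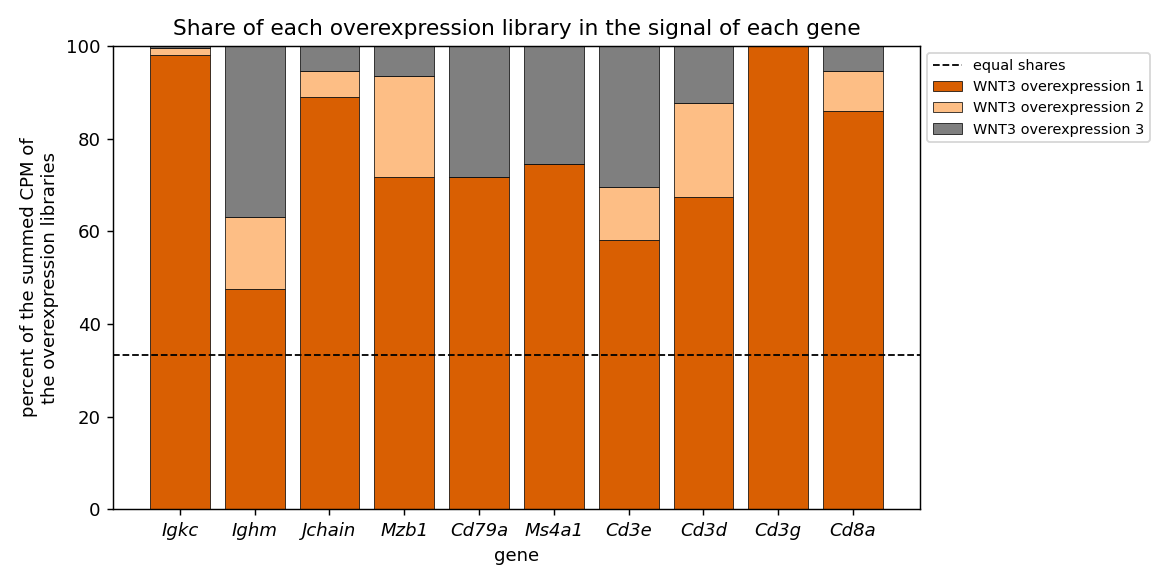
Percent of the summed CPM of the 3 overexpression libraries found in each of them, by gene, with a dashed line at equal shares. Library 1 holds 98.1% for Igkc, 89.0% for Jchain and 85.9% for Cd8a, and 47.6% for Ighm.

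Only Ighm and Jchain entered the fit across all genes, and the other 8 did not pass the filter on low counts. That filter needs a minimum level in enough libraries. Igkc failed it with 621, 11 and 3 counts in overexpression and 1 in each control. At an adjusted p under 0.05, edgeR's quasi-likelihood test called 0% of the 22360 genes, and DESeq2 called 0.286%. Neither Ighm nor Jchain was among the calls of either tool. The edgeR test had 1040 genes at an unadjusted p under 0.05, with a lowest adjusted p of 0.822.

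The summed level of the 5 B lineage genes other than Ighm was 38.25, 2.02 and 1.93 CPM in overexpression libraries 1 to 3 and 0.704, 0.825 and 0.989 CPM in controls 1 to 3. The summed level of Cd3e, Cd3d, Cd3g and Cd8a was 3.78, 0.434 and 0.462 CPM in overexpression, against 0.0704, 0.238 and 0.336 CPM in control. Both sums were above every control in all 3 overexpression libraries, with libraries 2 and 3 close to each other. Jchain alone gave 1.61 and 1.57 CPM of the B lineage sum in overexpression libraries 2 and 3. Ighm, left out of that sum, is more abundant than all of it in those libraries and in the controls, and its groups overlapped. Among single genes with a count, 4.71% had overexpression higher with no overlap. The genes were picked with this contrast in view, so nothing is read from these sums. For the T cell sum, libraries 2 and 3 rest on 27 and 33 counts and the controls on 3, 13 and 17.

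In wider lists of the same lineages, 0 of the tested genes of each list passed the edgeR test adjusted over all genes. Of 18 genes of B cell identity and signalling, 10 were tested, 6 of them higher and 4 lower, and their log2 fold changes had a median of 0.07 beside -0.01 over all genes tested, and -0.14 without overexpression library 1. Cd22, an inhibitory co-receptor of B cells, was at 1.55, 0.434 and 0.350 CPM in overexpression and 0, 0.128 and 0.356 CPM in control. Blnk, a signalling adaptor of B cells, was at 9.09 ± 2.08 CPM in overexpression and 5.38 ± 1.72 CPM in control (SD, n = 3 each), with groups that overlapped. It was the most abundant gene of the list, which summed to 20.4, 22.6 and 19.0 CPM in overexpression. In controls 1 to 3 the list summed to 16.2, 17.3 and 13.5 CPM. Cd37, a tetraspanin of leukocytes, had 148, 148 and 230 counts in overexpression and 98, 193 and 84 in control, and Fcer2a, the low-affinity IgE receptor, averaged 2.69 CPM in overexpression and 2.01 CPM in control. Pax5, a transcription factor of B cells singled out after its values were seen, had 14, 0 and 0 counts in overexpression and 10, 5 and 9 in control.

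Of 12 plasma cell programme genes, 10 were tested, 6 of them higher and 4 lower, and their log2 fold changes had a median of 0.27. Its most abundant genes are used by many secretory cell types. Xbp1, a transcription factor of the unfolded protein response, was at 61.3 ± 10.6 CPM in overexpression and 48.7 ± 9.19 CPM in control (SD, n = 3 each). Pdia4, a protein disulphide isomerase, averaged 36.4 CPM in overexpression and 26.8 CPM in control, and Sec11c, a subunit of the signal peptidase, 28.5 CPM in overexpression and 48.95 CPM in control. Irf4, a transcription factor that plasma cells need, was at 1.34, 1.25 and 1.05 CPM in overexpression and 0.657, 0.807 and 0.494 CPM in control, a log2 fold change of 0.89 ± 0.37 (SE), with an unadjusted p of 0.0423 and an adjusted p of 0.822 by the edgeR test. Every overexpression library was above every control for Irf4, and its log2 fold change was 0.81 without overexpression library 1. Pou2af1, a coactivator of immunoglobulin transcription singled out after its values were seen, had 38, 4 and 19 counts in overexpression and none in any control. Other genes of the list, singled out likewise, did not share this. Tnfrsf17 had 15, 0 and 21 counts in overexpression and 17, 22 and 14 in control, and Slamf7 43, 7 and 0 in overexpression and 4, 11 and 5 in control. Over all genes with a count, 4.71% had overexpression higher with no overlap (5.89% of genes tested).

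Of the T cell receptor constant regions and zeta chain, 2 were tested, 0 of them higher and 2 lower. Their log2 fold changes had a median of -0.43, with -0.89 without overexpression library 1 and 0.19 without control 2. Of the 4 genes with a count, 2, Trac and Cd247, were highest in overexpression library 1, while Trbc2 was lowest there. Trbc2, a constant region of the receptor's beta chain, had 15, 83 and 48 counts in overexpression and 30, 161 and 21 in control, so overexpression library 1 was the lowest of the 6 libraries. Trac, the alpha constant region, had 6, 1 and 2 counts in overexpression and 1, 2 and 1 in control. Trdc had at most 1 count in a library and Trbc1 none. Cd247, the zeta signalling chain, had 36, 0 and 16 counts in overexpression and 18, 15 and 9 in control. No variable segment of the alpha or beta chain had more than 1 count in any library, with 3, 4 and 5 alpha segments at 1 count in overexpression and 7, 0 and 4 in control. The alpha segments summed to only 0.000685, 0.00957 and 0.011 TPM in overexpression and 0.00148, 0 and 0.000964 TPM in control. Their counts of 1 are therefore not read as numbers of segments detected. The rows of the whole alpha and beta loci had 623 to 1173 and 1060 to 2600 counts over the 6 libraries. The gamma chain constant genes were listed under symbols that did not match the table, and were not analysed here.

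Of 20 T cell surface and signalling genes, 13 were tested, 7 of them higher and 6 lower, and their log2 fold changes had a median of 0.02. The median was -0.17 without overexpression library 1 and -0.21 without control 1. Counting untested genes, 11 of the 19 with a count were highest in overexpression library 1. Cd6, Cd4 and Skap1, the most abundant of the list, averaged 2.51, 1.49 and 1.09 CPM in overexpression and 3.72, 1.97 and 1.41 CPM in control, each with groups that overlapped. Of 16 genes of cytotoxic and natural killer cells, 2 were tested, and both were higher on average: Ccl5, a chemokine of these cells, at 1.36, 0.321 and 0.126 CPM in overexpression and 0, 0.770 and 0.356 CPM in control, and Ctsw, a cathepsin of cytotoxic cells, at 0.642, 0.177 and 0.574 CPM in overexpression and 0.211, 0.312 and 0.218 CPM in control. Without overexpression library 1, the log2 fold change of Ccl5 was -0.76, where it was 0.64 with all libraries, and the median of this list was -0.08, where it was 0.77. Klrk1, the activating receptor NKG2D, had 38, 0 and 8 counts in overexpression and 4, 2 and 9 in control. Their list summed to 5.08, 1.46 and 1.46 CPM in overexpression and 0.821, 2.09 and 1.40 CPM in control.

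Among 16 factors that attract or sustain lymphocytes, 13 were tested, 8 of them higher and 5 lower, and their log2 fold changes had a median of 0.27, and -0.05 without control 1. Cxcl9, a chemokine that draws activated T cells through CXCR3, was at 0.927, 0.610 and 0.266 CPM in overexpression and 0, 0 and 0.0791 CPM in control. Cxcl12, a chemokine that also guides plasma cells, was at 51.7, 66.3 and 50.5 CPM in overexpression and 42.2, 33.0 and 33.2 CPM in control, a log2 fold change of 0.64 ± 0.19 (SE). In both chemokines the groups did not overlap, with adjusted p = 0.822 by the edgeR test. Over all genes tested, 11.9% had groups that did not overlap in either direction. Vcam1 and Icam1, adhesion molecules that leukocytes bind, averaged 28.5 and 3.64 CPM in overexpression and 31.6 and 2.14 CPM in control, and both had groups that overlapped.

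Markers of other cell types in the same libraries give the setting of these values. Meningeal fibroblast markers summed to 97.0, 54.3 and 35.5 CPM in overexpression libraries 1 to 3 and 43.5, 32.1 and 70.6 CPM in the controls, with 8 of 10 markers highest in overexpression library 1. Choroid plexus markers summed to 11.3, 6.49 and 4.145 CPM in overexpression and 4.46, 4.255 and 7.91 CPM in control, and the sum and 4 of the 8 markers were highest in that library. The markers highest there were Ttr, Kl, Kcnj13 and Clic6, while Folr1 and Otx2 had no count in it and Aqp1 and Prlr were higher in another library. Ttr, the main secreted protein of the choroid plexus, was at 1.68, 0.707 and 0.602 CPM in overexpression and 0.258, 1.14 and 0.514 CPM in control. Red blood cell markers summed to 476, 362 and 184 CPM in overexpression and 119, 722 and 247 CPM in control, so overexpression library 1 lay below control 2. Neutrophil markers were highest in overexpression library 2, at 30.9, 50.3 and 13.6 CPM in overexpression and 6.38, 7.59 and 5.32 CPM in control. Monocyte and dendritic cell markers summed to 45.7, 39.1 and 35.4 CPM in overexpression and 33.4, 51.9 and 41.1 CPM in control, a sum made up mostly of Siglech and Flt3. Of the 9 of these markers with a count, 5 were highest in overexpression library 1 (Ccr2, Ly6c2, Plac8, Chil3 and Itgax), and of 6 tested, 5 were higher and 1 lower, with log2 fold changes at a median of 0.79. Ccr2, which monocytes use to follow chemokines, stood at 2.55, 0.964 and 0.420 CPM in overexpression and 0.305, 0.0550 and 0.198 CPM in control. The single markers of other cell types named here were singled out after their values were seen. Microglia markers summed to 495, 304 and 392 CPM in overexpression and 363, 565 and 421 CPM in control. The part of meningeal or choroid plexus tissue, of monocytes, of Wnt3 level or of any other difference of library 1 in the lymphocyte signal was not tested.

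**Figure D4:**
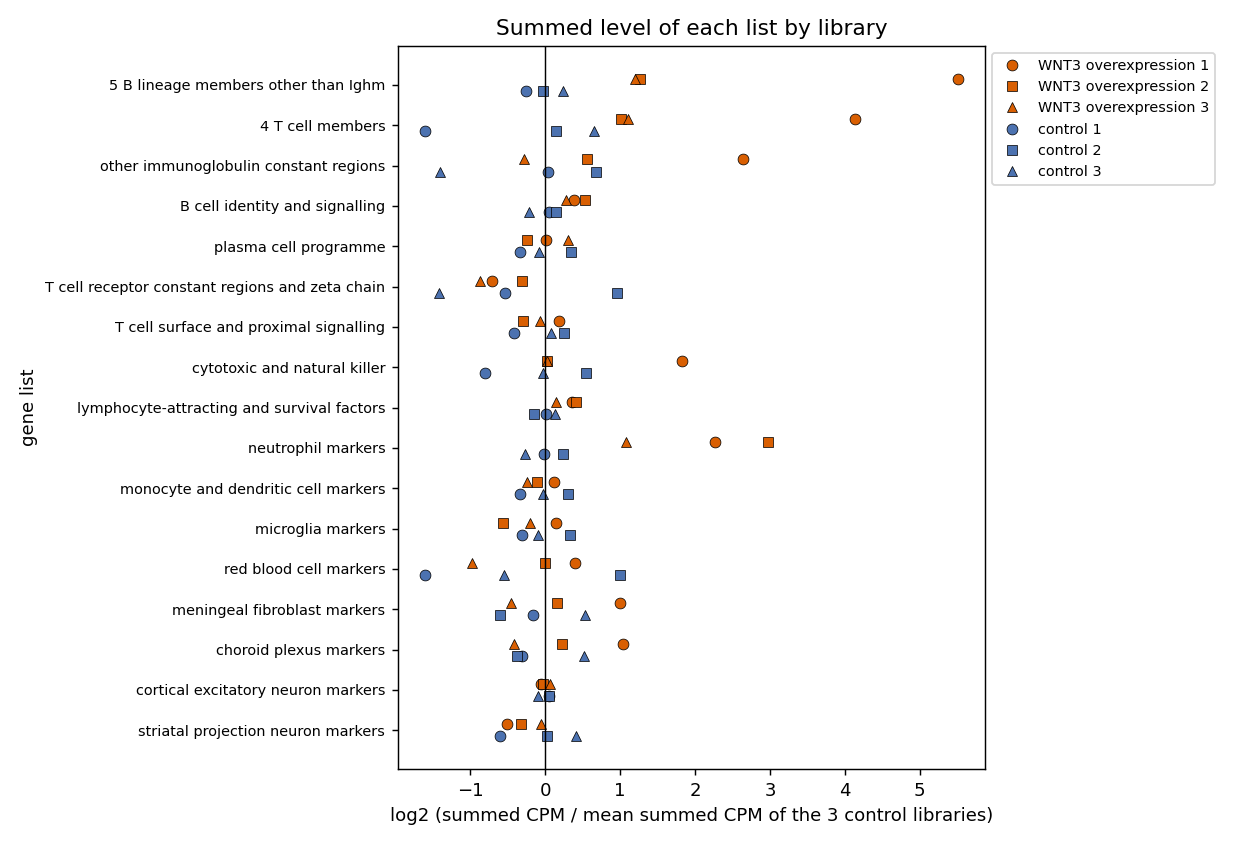
Summed CPM of each gene list in each library, as log2 of its ratio to the mean of the 3 controls, orange for WNT3 overexpression and blue for control, with a marker shape per replicate number. The 5 B lineage genes other than Ighm (38.25 CPM) and the 4 T cell genes (3.78 CPM) of overexpression library 1 lie farthest right. The plasma cell programme, T cell receptor and brain cell lists overlap between the groups. The B cell identity and neutrophil lists do not, and the lymphocyte-attracting list is apart only narrowly (lowest overexpression 87.8, highest control 86.6 CPM).

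The genes outside the 10 whose profile over the 6 libraries was nearest to the sum of Igkc, Ighm and Jchain, by Euclidean distance of centred log2 CPM, were Gm47112, Slc22a3, Smoc2, Igh and Gm46592, with distances of 0.562, 0.650, 0.682, 0.749 and 0.844. Ighm makes up most of that sum in the controls, and Igh is the row of its own locus. The nearest to the sum of Cd3e, Cd3d and Cd3g were Gm4951, Ifi204, Itgax, C4b and Ifi213, with distances of 1.10, 1.17, 1.36, 1.36 and 1.38. Ifi204 and Ifi213 belong to an interferon-inducible gene family, Itgax encodes the integrin CD11c of myeloid cells and C4b a complement component. C4b was at 82.2, 31.6 and 41.2 CPM in overexpression libraries 1 to 3 and 11.9, 10.97 and 26.2 CPM in the controls, and Ifi204 at 4.58, 1.04 and 1.162 CPM in overexpression and 0.493, 0.568 and 0.396 CPM in control.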

How the data were processed

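RNA was extracted with Trizol and made into strand-specific TruSeq libraries, per the labels' protocols, and the 6 libraries were grouped by their titles. The submitters' processing notes name FastQC 0.11.5, STAR 2.5.3a, Cuffnorm, DESeq 1.16.1 and the build mm10, without roles. Which program counted the reads, with which annotation and strand setting, is not given in the sources used here. Antisense or overlapping genes may share reads. The deposited count table holds whole-number estimated counts per gene, not scaled, and some fractional estimates appear rounded up to 1. A matching table of TPM was deposited, in which every library sums to the same total.

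Genes were kept by filterByExpr (minimum count 10, by group), which left 22360 of 50559. Groups were compared with the edgeR 4.0.16 quasi-likelihood test in R 4.3.3, scaled by TMM, without covariates, and Benjamini-Hochberg adjustment at 0.05. The SE of a log2 fold change is its size divided by the square root of F. Alternatives used DESeq2 1.42.0, limma 3.58.1 on log2(TPM + 1) and log2(TPM + 0.1), other scaling and filters, the replicate block and the omission of each library. No permutation test was run, since with 3 libraries a group its smallest two-sided p is above the threshold. In counts simulated for the same comparison and 22360 genes, edgeR called 74 of 100 genes changed 4-fold and 14 of 100 changed 2-fold, with 4 false calls. The changed genes were drawn from those with a mean of at least 1 CPM. The share called was not measured for genes below that level, where most of the 10 genes lie. Replicates of a group differed by more than sampling noise (chi-square per degree of freedom 21.0 to 311).

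The 10 genes and all lists were chosen with earlier results of these data known. The rule for naming took all 10 genes, Wnt3, the measured receptor constant regions, the 3 most abundant genes and the 2 with the smallest p of the other lymphocyte lists, the top variable segments and the 5 nearest profiles; genes outside it are marked in the text, and some results are not reported here.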

Additional observations from a re-analysis of the deposited data

How the results depend on the processing

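With all libraries, the 10 genes were higher on average in overexpression under every scaling, with no filter, in DESeq2's normalised counts and on both TPM scales, and 7 to 10 were higher when single libraries were left out, the lowest without overexpression library 1. With a mean TPM minimum of 0.5, 4 genes remained to be compared and 4 were higher, but a gene could pass that minimum through its high group. The edgeR test called 0 genes under every scaling, filter and omission, and limma 0 on each TPM scale, whereas DESeq2 called 64 (34 higher and 30 lower; 1354 at an unadjusted p under 0.05). With the replicate number as a block edgeR called 0 genes (751 at an unadjusted p under 0.05) and the log2 fold change of Jchain was 2.33; same-numbered libraries did not deviate together (correlations of 0.0586, -0.0204 and -0.0103), so the numbers were not taken to pair the samples. Jchain stood at 1.89 on log2(TPM + 1). Median log2 fold changes of lists moved by more than the spread between replicates as follows. The main medians not given above were 4.60 for neutrophils, 0.002 for cortical neurons and 0.345 for the other constant regions. On log2(TPM + 0.1) the B cell list was 0.28, the plasma cell list 0.49, the attracting factors 0.63 and cortical neurons 0.18. With the TPM minimum the other constant regions were 1.54, the B cell list 0.40, the attracting factors 0.63, monocytes 1.37 and cortical neurons 0.18. On log2(TPM + 1) neutrophils were 1.94, monocytes 0.40 and cortical neurons 0.18. With no filter T cell surface genes were 0.22 and monocytes 1.64. Over single omissions only one end of each range lay beyond that spread. It was -0.14 for the B cell list, 0.19 for T cell receptor genes (without control 2) and -0.21 for T cell surface genes. It was -0.052 for attracting factors (without control 1), 7.21 for neutrophils and 0.41 for monocytes. The opposite ends, in the same order, were 0.23, -0.89 (without overexpression library 1), 0.19, 0.41, 3.80 and 1.14, and had not moved beyond it. The cause of these moves was not tested. Depth limits the genes at a few counts a library: 3 counts over a group are 0.0158 CPM in overexpression and 0.0203 CPM in control.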
